A study of Mus musculus with 32 samples.

Results

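The comparison described here sets old muscle at day 35 after injury against old muscle at day 7 after injury, all of it from mice given BI01. Its 8 libraries, 4 for each day, were taken by table column from the 32 libraries of the series, and every gene of the table was considered. All 8 are libraries of skeletal muscle, the tibialis anterior at the front of the shin, taken from old C57BL/6J mice after injury with barium chloride (BaCl in the labels). BI01 is the compound that the labels call a senolytic, a drug meant to remove senescent cells, and the series title places its action at the binding of p53 to MDM2. A further 2 pairs of groups serve to read the change: old mice given vehicle and young mice given vehicle, each injured in the same way and sampled at both days with 4 libraries per day. Old uninjured muscle given vehicle (4 libraries, whose names hold PBS in place of BaCl and whose table columns carry the 35-day name) is quoted as a level only.

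What these groups can show has limits. The labels give age as a word, without months, and neither the dose nor the schedule of BI01 nor the sex of the mice. Nothing in them states which libraries share an animal, so a p-value measures only the spread between these samples. Table columns name the group and a number that does not match the numbers in the sample titles, and libraries are called by those table numbers here (6 to 9 at day 35, 1 to 4 at day 7). The labels do not say whether the 2 days were collected or sequenced together, and the part of this in the results was not tested. Whole muscle was sequenced, and fewer cells of a type cannot be told apart from less RNA per cell.

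Barium chloride kills muscle fibres and spares much of the vessel, nerve and stem cell framework. Neutrophils and macrophages clear the debris, satellite cells divide and fuse, and new fibres first build developmental forms of myosin, troponin and acetylcholine receptor. As fibres mature and are innervated again, adult fast isoforms and the enzymes of energy metabolism take over, and the transient matrix is remodelled. Day 7 is usually a time of young fibres and many mononuclear cells, and by day 35 fibres have usually regained adult size.

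Total counts per library were 16419816 to 16886978 at day 35 and 17234091 to 21590707 at day 7. Levels are given as CPM, the count of a gene per 1e+06 counts of the TMM-scaled library, in the order of the table numbers. All tests of single genes are edgeR's quasi-likelihood test, with p-values adjusted by Benjamini and Hochberg over all genes tested, and a gene is called at an adjusted p under 0.05. Of 54532 genes, 17121 passed the filter on low counts. The days parted on a first principal component with 73.1% of the variance, and day 7 library 2 stood apart from the other 7 on the second (8.33%). The top 10 genes made up 24.2% to 28.2% of each library at day 35 and 9.52% to 14.97% at day 7. The choice of scaling matters here. The all-gene median log2 fold change was -0.09 with TMM and -0.97 with library size alone, under which 1365 genes were called higher and 10156 lower in place of 4479 and 5032. Changes below are relative to TMM scaling unless stated.

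Markers of skeletal muscle were present at both days. Ckm, the muscle creatine kinase, had 17299, 20756, 13062 and 15237 CPM in day 35 muscle, against 2102, 1189.9, 2969.7 and 4175 CPM in day 7 muscle. The day 7 values were lower in every library and still among the higher levels of the table. Of 12 such markers, 9 were called higher at day 35 and 0 lower, and none was at 0 throughout either day.

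Between the days, 9511 of 17121 genes were called (55.6%), 4479 higher at day 35 (26.2%) and 5032 lower (29.4%). The falls were the deeper changes. More than 8-fold separated the days for 230 genes that rose and 1247 that fell, and more than 64-fold for 12 and 126. In 9193 genes (53.7%) the 4 libraries of one day lay wholly beyond the 4 of the other. Counts of list members below are to be read against the shares 26.2% and 29.4% and against a median log2 fold change over all genes of -0.09. Leaving out any 1 library gave 8670 to 9451 called genes, and 8749 without day 7 library 2.

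Genes of the adult fast fibre rose, and most genes of the developing fibre fell. Among 20 tested genes of the mature fast fibre, 17 were called higher and 1 lower, with a median log2 fold change of 2.16. Myosin heavy chain 4 (Myh4, ENSMUSG00000057003), the motor of the fastest fibres and the gene with the most counts in day 35 muscle, had 81186, 92050.0, 51368 and 66451 CPM in day 35 muscle, against 10524, 5769, 16164 and 20839.7 CPM in day 7 muscle (log2 fold change 2.45, SE 0.44, adjusted p = 2.49e-05). All 4 day 35 libraries lay above all 4 day 7 libraries. Mybpc2, fast myosin-binding protein C, had 9063, 10039, 5712 and 7386 CPM in day 35 muscle, against 486, 251, 613 and 1049.7 CPM in day 7 muscle (log2 fold change 3.75, SE 0.50, adjusted p = 2.5e-07), and its groups did not overlap either. Mylk2, the skeletal light chain kinase (3.50), and Atp2a1, the calcium pump of fast fibres (2.67, adjusted p = 1.15e-06), rose as well. Acta1, skeletal actin and the gene with the highest mean at day 7, had 29098, 39325, 27502 and 35994 CPM in day 35 muscle, against 15005, 9954, 14555 and 17458 CPM in day 7 muscle (log2 fold change 1.21, SE 0.31, adjusted p = 0.00142), and Aldoa, the muscle aldolase, rose by 2.45 on the log2 scale. The call of Acta1 was lost with library size alone.

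In the regenerating fibre list, 0 were called higher and 16 lower of 20 tested, with a median of -2.92. Embryonic myosin (Myh3, ENSMUSG00000020908) led the 10 largest falls named, with 9.42, 1.27, 13.1 and 12.7 CPM in day 35 muscle, against 2622, 2779, 1402 and 841 CPM in day 7 muscle (log2 fold change -7.71, SE 1.25, adjusted p = 1.07e-05). Perinatal myosin (Myh8) had 40.8, 21.6, 37.1 and 24.6 CPM in day 35 muscle, against 4323, 2076, 1813 and 1564 CPM in day 7 muscle (log2 fold change -6.30, SE 0.70, adjusted p = 2.47e-08). In both genes the lowest day 7 library stood far above the highest day 35 library. Old uninjured muscle averaged 164 ± 185 CPM of Myh3 and 87.5 ± 94.9 CPM of Myh8 (SD, n = 4), with a spread wider than that among day 35 libraries. The neural cell adhesion molecule Ncam1, found on young and denervated fibres, fell (-4.46, adjusted p = 7.2e-09), as did Chrna1 (-3.55) and Chrnd (-4.28), subunits of the acetylcholine receptor.

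**Figure D1:**
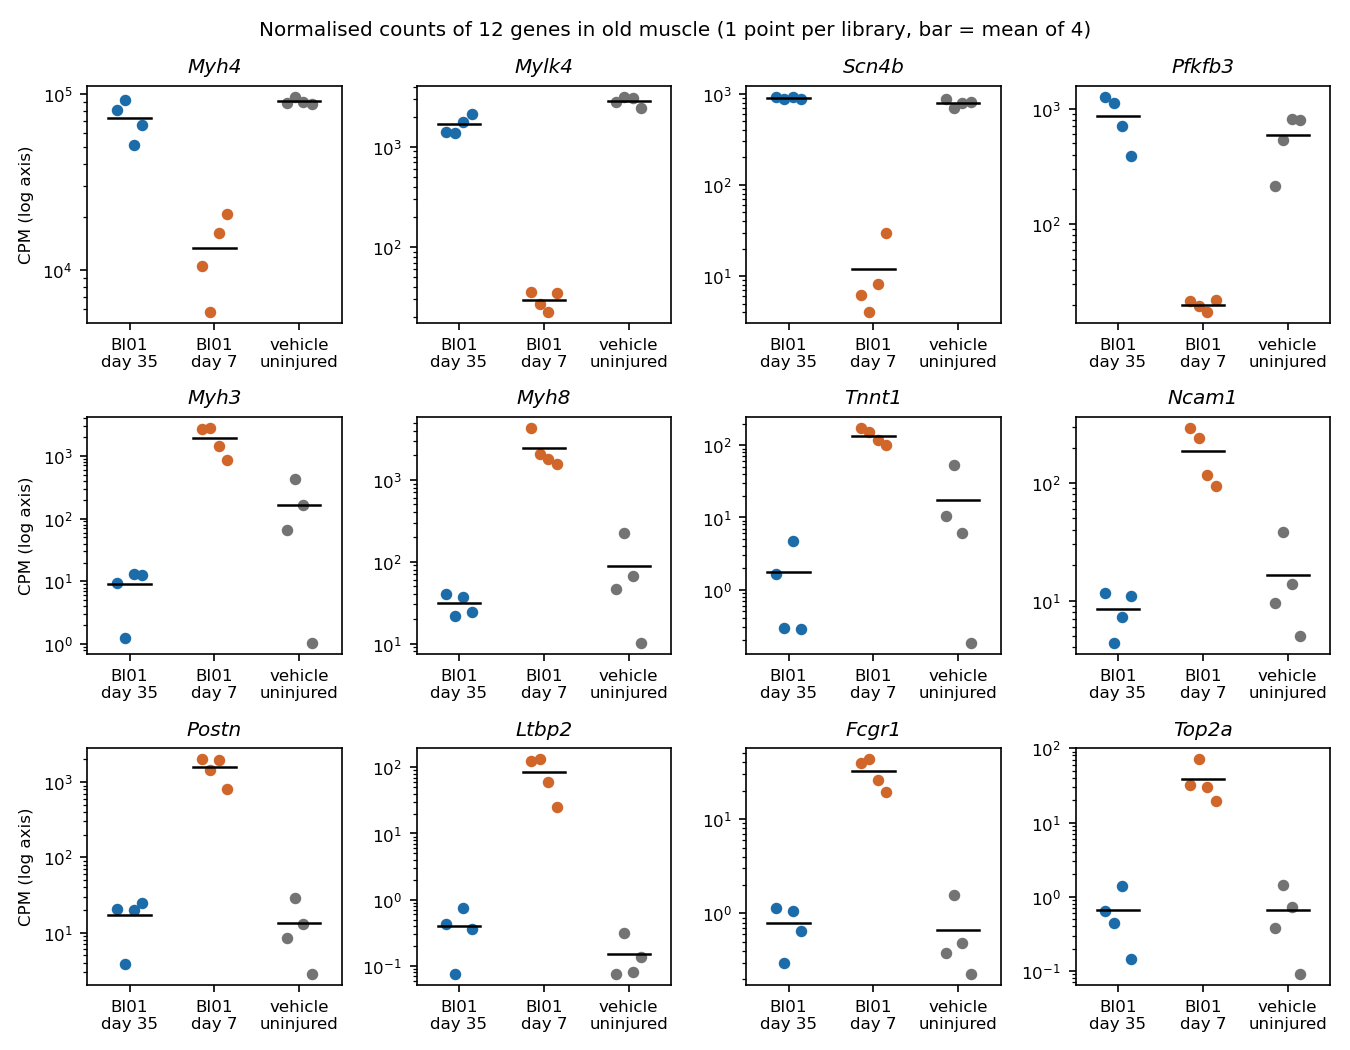
Each point is the CPM of 1 library on a log axis, for 12 genes in old muscle: BI01 at day 35 (blue, left), BI01 at day 7 (orange) and uninjured vehicle (grey), with the mean of 4 as a bar. In the top row (Myh4, Mylk4, Scn4b, Pfkfb3) all day 35 points lie above all day 7 points, and in the 8 genes of the lower rows all lie below.

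In mm10, 5 of the myosin heavy chain genes stand side by side on the plus strand of mouse chromosome 11, in the order Myh3 (chr11:67078300-67102291), Myh2 (chr11:67171027-67197517), Myh1 (chr11:67200052-67224575), Myh4 (chr11:67238029-67260446) and Myh8 (chr11:67277124-67308634). Myh4 alone of these 5 was called higher. Myh2, the myosin of intermediate fast fibres and the exception within the mature fast list, had 10.9, 8.21, 29.3 and 20.2 CPM in day 35 muscle, against 228, 525, 113 and 384 CPM in day 7 muscle (log2 fold change -4.18, SE 1.03, adjusted p = 0.00124). Myh1, another adult fast myosin, had 4354, 1303, 10891 and 9781 CPM in day 35 muscle, against 5288, 4301, 3279.5 and 6589.7 CPM in day 7 muscle, and with overlapping groups it was not called (log2 fold change 0.44, SE 0.56, adjusted p = 0.522). The 250 bases before the RefSeq start of 3 of these neighbours are shown because the genes lie within one stretch of chromosome and moved in opposite directions. They are from RefSeq on GRCm38.p6, the assembly that mm10 names, written 5′ to 3′ on the gene's strand, with the E-box letters CAGCTG and the TATA box letters TATAAA (either strand; CAGCTG reads the same on both) in capitals.
Myh3: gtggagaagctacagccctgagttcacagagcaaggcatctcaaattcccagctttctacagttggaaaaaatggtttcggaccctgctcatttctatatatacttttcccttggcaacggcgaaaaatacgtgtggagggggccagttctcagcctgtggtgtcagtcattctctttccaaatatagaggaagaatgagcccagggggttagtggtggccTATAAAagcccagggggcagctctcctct
Myh8: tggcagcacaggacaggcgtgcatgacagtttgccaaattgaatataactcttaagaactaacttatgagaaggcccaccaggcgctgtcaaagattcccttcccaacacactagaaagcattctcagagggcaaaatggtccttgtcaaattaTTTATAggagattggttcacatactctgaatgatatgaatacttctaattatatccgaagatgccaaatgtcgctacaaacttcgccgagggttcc
Myh4: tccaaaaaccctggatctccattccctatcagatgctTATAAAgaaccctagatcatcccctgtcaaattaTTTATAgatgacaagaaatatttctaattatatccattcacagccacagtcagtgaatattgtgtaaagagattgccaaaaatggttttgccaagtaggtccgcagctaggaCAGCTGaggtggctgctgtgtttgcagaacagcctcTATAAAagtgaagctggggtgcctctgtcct
The windows are chr11:67078050-67078299, plus strand, for Myh3, chr11:67276874-67277123, plus strand, for Myh8 and chr11:67237562-67237811, plus strand, for Myh4. Myh4, the gene that rose, holds CAGCTG, and the windows of Myh3 and Myh8 hold TATAAA letters without it. Of the mature fast fibre genes with a promoter in the table, 8 of 15 (53.3%) held CAGCTG, and of the regenerating fibre genes 5 of 17 (29.4%), beside 1473 of 11906 (12.4%) of all tested genes with one. For TATAAA these were 4 of 15 (26.7%), 3 of 17 (17.6%) and 846 of 11906 (7.11%). A match describes letters in this window and says nothing of binding.

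Slow fibre genes fell too. In that list 0 were called higher and 9 lower of 11 tested, with a median of -3.73. Tnnt1, slow troponin T, had 1.65, 0.299, 4.76 and 0.287 CPM in day 35 muscle, against 175, 154, 117 and 101 CPM in day 7 muscle (log2 fold change -6.26, SE 1.11, adjusted p = 3.28e-05). Day 7 values were of one order while the day 35 values ranged widely near the floor of detection. Atp2a2, the calcium pump of slow fibres and heart, had 64.2, 51.4, 57.7 and 62.0 CPM in day 35 muscle, against 559, 461, 321 and 328 CPM in day 7 muscle (log2 fold change -2.83, SE 0.28, adjusted p = 2.04e-09), with no overlap. Casq2 (-3.53), a calcium store protein, Myoz2 (-3.73), a Z-disc protein, and the slow tropomyosin gene Tpm3 (-1.99) fell too.

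The 10 largest rises, among called protein-coding genes that averaged 5 CPM or more at day 35, summed to 4 counts or more at day 7 and showed no overlap between the days, predicted genes left out, hold channels, a kinase and enzymes of mature muscle. Scn4b, a beta subunit of voltage-gated sodium channels, had 926, 870.2, 921 and 883 CPM in day 35 muscle, against 6.18, 4.01, 8.23 and 29.7 CPM in day 7 muscle (log2 fold change 6.23, SE 0.65, adjusted p = 8.29e-09). Mylk4, a light chain kinase of muscle, had 1419, 1384, 1772 and 2147 CPM in day 35 muscle, against 35.5, 26.8, 22.3 and 34.6 CPM in day 7 muscle (log2 fold change 5.82, SE 0.32, adjusted p = 5.46e-14). Pfkfb3, which makes the sugar phosphate that activates glycolysis, had 1264, 1113, 701 and 385 CPM in day 35 muscle, against 21.8, 19.5, 17.2 and 21.8 CPM in day 7 muscle (log2 fold change 5.43, SE 0.43, adjusted p = 5.85e-11). Day 7 values of Pfkfb3 were nearly equal, and those of day 35 spread over a few-fold. The others were the potassium channel subunit Kcng4 (6.04), the water channel Aqp4 (5.72), the methyltransferases Inmt (5.60) and Mettl21c (4.86), the protease inhibitor Timp4 (5.46), the retinaldehyde dehydrogenase Aldh1a1 (4.87) and the carbonic anhydrase Car14 (5.11). Car14 overlaps Aph1a on the other strand, and the strandedness of the counting is not stated in those sources, so its reads cannot be told apart from those of Aph1a. The same holds in part for Timp4 and Syn2.

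Energy metabolism genes rose with the fast fibre genes. Of 21 tested genes of glycolysis and glycogen, 18 were called higher and 1 lower (median 2.10). Pkm, pyruvate kinase, had 4817, 6075, 5394 and 6375 CPM in day 35 muscle, against 1088, 1115, 1344 and 1746 CPM in day 7 muscle (log2 fold change 2.10, SE 0.21, adjusted p = 2.65e-09), without overlap. Pgk1, phosphoglycerate kinase, and Fbp2, muscle fructose bisphosphatase, rose by 1.81 and 3.73 on the log2 scale. Pgm1, listed under glycogen as a phosphoglucomutase, went the other way, with 3.09, 2.39, 3.08 and 4.09 CPM in day 35 muscle, against 9.36, 9.94, 8.98 and 7.35 CPM in day 7 muscle (log2 fold change -1.49, SE 0.30, adjusted p = 0.000117). These levels are low beside those of Pkm. The annotation release is not stated, and whether this symbol names the main phosphoglucomutase of muscle was not checked.

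Each of the 35 nuclear respiratory chain genes tested was called higher, with a median of 1.35. With library size alone, 16 of them were called higher and 0 lower. Sdha, the flavoprotein of succinate dehydrogenase, had 1328, 1160.2, 1477 and 1392 CPM in day 35 muscle, against 275, 227, 409 and 538 CPM in day 7 muscle (log2 fold change 1.89, SE 0.25, adjusted p = 2.1e-07), without overlap. Uqcrb of complex III (2.24) and Ndufa9 (1.39) of complex I rose likewise. The mitochondrial gene mt-Co1, a catalytic subunit of cytochrome oxidase, had 45142, 44331, 49511 and 62409.6 CPM in day 35 muscle, against 14368, 10419.7, 12259 and 14306 CPM in day 7 muscle (log2 fold change 1.97, SE 0.27, adjusted p = 3.61e-07). Mitochondrial genes together took 9.86% to 14.9% of the counts at day 35 and 4.90% to 5.70% at day 7. Among genes of fatty acid use 16 were called higher and 0 lower of 24 (median 1.06), led by the medium-chain dehydrogenase Acadm (1.75), Eci1 (1.64), Hadhb (1.44) and Cpt2 (1.05, not called with library size alone), and with library size alone 7 were higher and 3 lower.

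**Figure D2:**
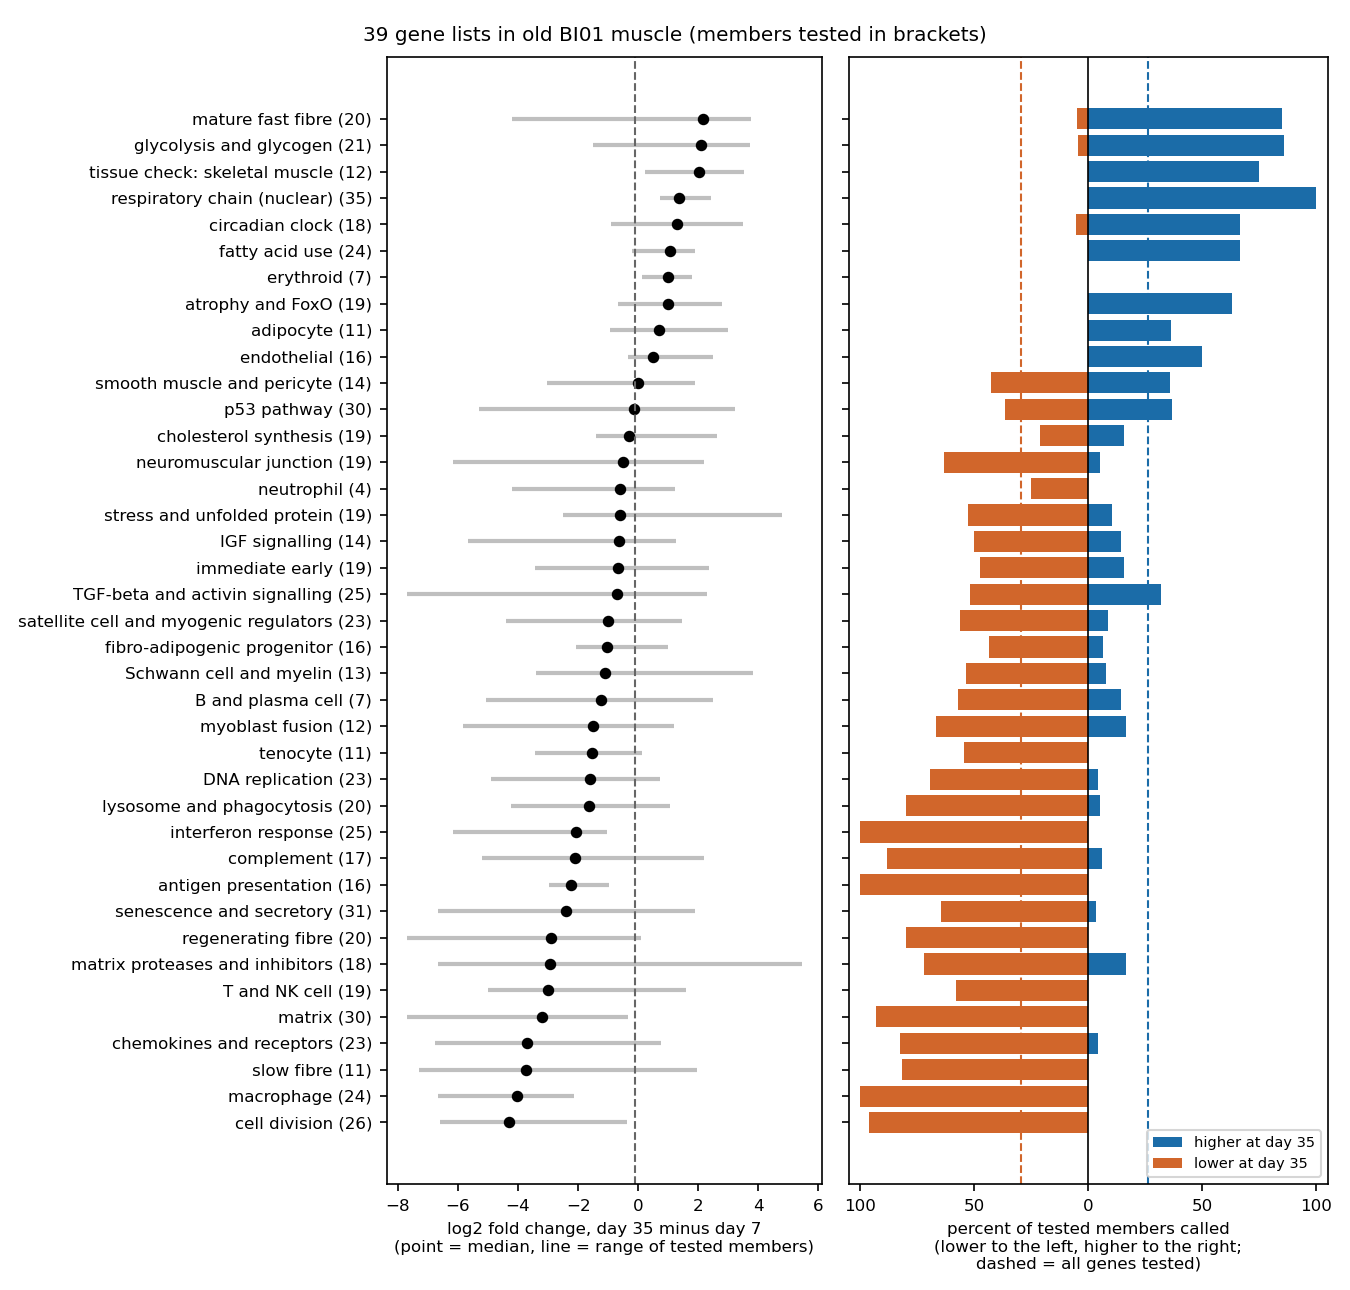
For each of 39 gene lists, the left side shows the median (point) and range (line) of the log2 fold change, day 35 minus day 7, and the right side the percent of tested members called higher (blue) or lower (orange). Dashed lines mark all genes tested (median -0.09, 26.2% higher and 29.4% lower). Mature fast fibre and glycolysis lists sit at the top, and macrophage and cell division lists at the bottom.

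Genes of cell division fell. In that list 0 were called higher and 25 lower of 26 (median -4.31), and in the DNA replication list 1 was called higher and 16 lower of 23 (median -1.60). Ccnb1, the cyclin that drives entry into mitosis, had 0.144, 0.0747, 0 and 0.0717 CPM in day 35 muscle, against 7.64, 13.8, 5.12 and 3.50 CPM in day 7 muscle (log2 fold change -6.60, SE 0.82, adjusted p = 8.17e-08). Top2a, the topoisomerase of dividing cells, had 0.647, 0.448, 1.41 and 0.143 CPM in day 35 muscle, against 31.7, 72.3, 29.8 and 19.6 CPM in day 7 muscle (log2 fold change -5.82, SE 0.70, adjusted p = 8.59e-08). In both genes every day 7 library lay above every day 35 library. The mitotic motors Kif11 (-4.60) and Kif23 (-4.22), the replication helicase subunit Mcm5 (-3.20), the methylation maintenance factor Uhrf1 (-4.86) and the S-phase transcription factor E2f1 (-3.93) fell. Day 7 library 2 held the highest value in each of these genes, and without it the medians of the 2 lists were -3.87 and -1.42, with 25 and 14 members called lower. Rrm1, the large subunit of ribonucleotide reductase, was the 1 replication gene called higher (0.47, adjusted p = 0.0175). That call was lost without day 35 library 7 or without day 7 library 1, 3 or 4.

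The promoters of 3 division genes are printed because genes of this list moved together and many are known to carry the same short elements. Windows, source and direction are as above, and the capitals mark TTTGAA, the core of the cell cycle homology region, and CCAAT, the letters of the CCAAT box, on either strand.
Ccnb1: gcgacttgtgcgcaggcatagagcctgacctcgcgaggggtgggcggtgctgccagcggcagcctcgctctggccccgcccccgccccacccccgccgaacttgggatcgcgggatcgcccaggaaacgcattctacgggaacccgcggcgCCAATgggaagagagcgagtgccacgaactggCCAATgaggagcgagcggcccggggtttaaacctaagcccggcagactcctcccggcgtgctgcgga
Top2a: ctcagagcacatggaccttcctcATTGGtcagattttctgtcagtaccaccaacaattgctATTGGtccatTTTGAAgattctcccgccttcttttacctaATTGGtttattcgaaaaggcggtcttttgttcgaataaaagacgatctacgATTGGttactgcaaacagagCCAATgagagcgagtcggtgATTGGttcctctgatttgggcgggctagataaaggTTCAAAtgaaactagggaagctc
Kif11: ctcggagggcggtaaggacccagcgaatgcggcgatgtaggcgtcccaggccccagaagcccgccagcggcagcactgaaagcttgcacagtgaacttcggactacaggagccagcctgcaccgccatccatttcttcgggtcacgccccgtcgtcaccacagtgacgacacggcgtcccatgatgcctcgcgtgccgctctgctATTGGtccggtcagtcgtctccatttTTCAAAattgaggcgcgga
They lie at chr13:100786487-100786736, minus strand (Ccnb1), chr11:99024190-99024439, minus strand (Top2a) and chr19:37376132-37376381, plus strand (Kif11). TTTGAA stood in 9 of 22 (40.9%) of the division promoters, beside 1303 of 11906 (10.9%) of all tested genes with a promoter in the table. CCAAT stood in 17 of 22 (77.3%), beside 4245 of 11906 (35.7%). In the DNA replication list the counts were 3 of 18 (16.7%) and 11 of 18 (61.1%).

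Matrix genes and their proteases fell. Of 30 tested matrix genes, 0 were called higher and 28 lower (median -3.19). Postn, periostin of healing matrix, had 20.8, 3.88, 19.9 and 24.9 CPM in day 35 muscle, against 2041, 1451, 1957 and 818 CPM in day 7 muscle (log2 fold change -6.49, SE 0.61, adjusted p = 1.26e-09). Ltbp2, a microfibril protein that belongs to the latent TGF-beta binding proteins, had 0.432, 0.0747, 0.737 and 0.359 CPM in day 35 muscle, against 126, 134, 59.8 and 25.2 CPM in day 7 muscle (log2 fold change -7.70, SE 0.64, adjusted p = 2.53e-10). Day 35 library 7 was the lowest of its group in both. The small proteoglycan Bgn (-3.74), the crosslinking oxidase Loxl1 (-3.04) and the secreted collagen regulator Cthrc1 (-6.80) fell as well. Summed over the list, CPM was 893 to 3769.8 at day 35 and 13930.5 to 23920.2 at day 7.

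Among proteases and their inhibitors, 3 were called higher and 13 lower of 18 (median -2.94). Adam12, a membrane protease of regenerating muscle, had 0.216, 0.373, 0.938 and 1.65 CPM in day 35 muscle, against 58.4, 70.4, 55.1 and 28.3 CPM in day 7 muscle (log2 fold change -6.04, SE 0.54, adjusted p = 8.91e-10). The collagenase Mmp13 (-6.67) and the membrane protease Mmp14 (-3.14) fell, whereas the inhibitors Timp3 (1.46, adjusted p = 5.99e-07) and Timp4 (5.46, adjusted p = 2.53e-08) rose. In the TGF-beta and activin list 8 were called higher and 13 lower of 25 (median -0.70). The receptor genes parted. Tgfbr2, a receptor for TGF-beta, had 50.7, 42.1, 41.6 and 43.0 CPM in day 35 muscle, against 156, 138, 115 and 118 CPM in day 7 muscle (log2 fold change -1.57, SE 0.17, adjusted p = 5.24e-09), and the activin receptor genes Acvr1b (1.83) and Acvr2b (2.28) rose.

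All 24 macrophage markers tested fell, with a median of -4.04, and their summed CPM was 69.4 to 277 at day 35 and 1632 to 3716 at day 7. Fcgr1, the high-affinity antibody receptor, had 1.15, 0.299, 1.07 and 0.646 CPM in day 35 muscle, against 39.3, 43.8, 26.4 and 19.3 CPM in day 7 muscle (log2 fold change -5.32, SE 0.54, adjusted p = 4.43e-09). Spp1, osteopontin, had 3.09, 0, 2.48 and 0.502 CPM in day 35 muscle, against 247, 288, 64.6 and 17.7 CPM in day 7 muscle (log2 fold change -6.65, SE 1.196, adjusted p = 3.95e-05). The day 7 libraries of Spp1 differed widely among themselves, and still all lay above day 35. Fcgr3 (-3.60), the calcium-binding Aif1 (-4.99) and the lipopolysaccharide co-receptor Cd14 (-3.22) fell. None of the macrophage markers was at 0 in all libraries of a day.

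Markers of other white blood cells fell or did not pass the test, but for Jchain. Of 19 T and NK cell genes, 0 were called higher and 11 lower (median -3.01), among them the co-receptor Cd4, with 0.432, 0.0747, 0.804 and 0.287 CPM in day 35 muscle, against 5.66, 4.79, 6.65 and 9.93 CPM in day 7 muscle (log2 fold change -4.04, SE 0.61, adjusted p = 1.86e-06), the granzyme Gzma (-4.52), the kinase Lck (-3.95) and the receptor Klrk1 (-3.67). Of 12 neutrophil markers 4 could be tested, and the growth factor receptor Csf3r alone was called (-4.20, adjusted p = 1.95e-11). In the B and plasma cell list 1 was called higher and 4 lower of 7 (median -1.23). Cd22 (-5.06) and Ighm (-1.23), the heavy chain of IgM, fell. Jchain, which joins secreted antibodies, was higher (2.497, adjusted p = 0.0424), a call lost without any one of the day 7 libraries or without day 35 library 6, 7 or 9.

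Genes that present antigen or answer interferon fell. All 16 antigen presentation genes tested fell (median -2.23), including B2m, the light chain of class I molecules, with 127, 71.5, 114 and 80.3 CPM in day 35 muscle, against 395, 369, 434 and 423 CPM in day 7 muscle (log2 fold change -2.04, SE 0.26, adjusted p = 8.43e-08). H2-DMa, which helps load class II molecules, had a log2 fold change of -2.87, and Ciita, the class II transactivator, one of -2.97, although Ciita overlaps Dexi on the other strand. All 25 interferon response genes fell (median -2.08). Oas3, a sensor of double-stranded RNA, had 0.288, 0, 0.201 and 0.215 CPM in day 35 muscle, against 12.9, 17.9, 10.3 and 11.2 CPM in day 7 muscle (log2 fold change -6.15, SE 0.58, adjusted p = 8.18e-10), and Oas2 (-2.80) and Ifit2 (-2.31) fell with it. The summed CPM of the interferon list was 92.8 to 209 at day 35 and 445 to 619.6 at day 7.

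For complement, 1 was called higher and 15 lower of 17 (median -2.09), with C1qc (-4.03) and the receptor C3ar1 (-5.19) among the falls. C7, a component of the membrane attack complex, was higher (2.18, adjusted p = 0.0248), with overlapping groups, and lost its call without day 35 library 8 or 9 or without day 7 library 1, 2 or 3. For chemokines and their receptors, 1 was called higher and 19 lower of 23 (median -3.70). Ccl7, which attracts monocytes, had 0.216, 0.0747, 0.201 and 0.0717 CPM in day 35 muscle, against 11.2, 24.7, 6.51 and 6.39 CPM in day 7 muscle (log2 fold change -6.36, SE 0.75, adjusted p = 3.94e-08). The interferon-induced ligand Cxcl9 fell as well (-3.84). The scavenging receptor Ackr3 was higher (0.76, adjusted p = 0.027), a call lost without day 35 library 6, 8 or 9 or day 7 library 1 or 3. White cell genes and fibre genes changed between the same libraries, and the part of one in the other was not tested.

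**Figure D3:**
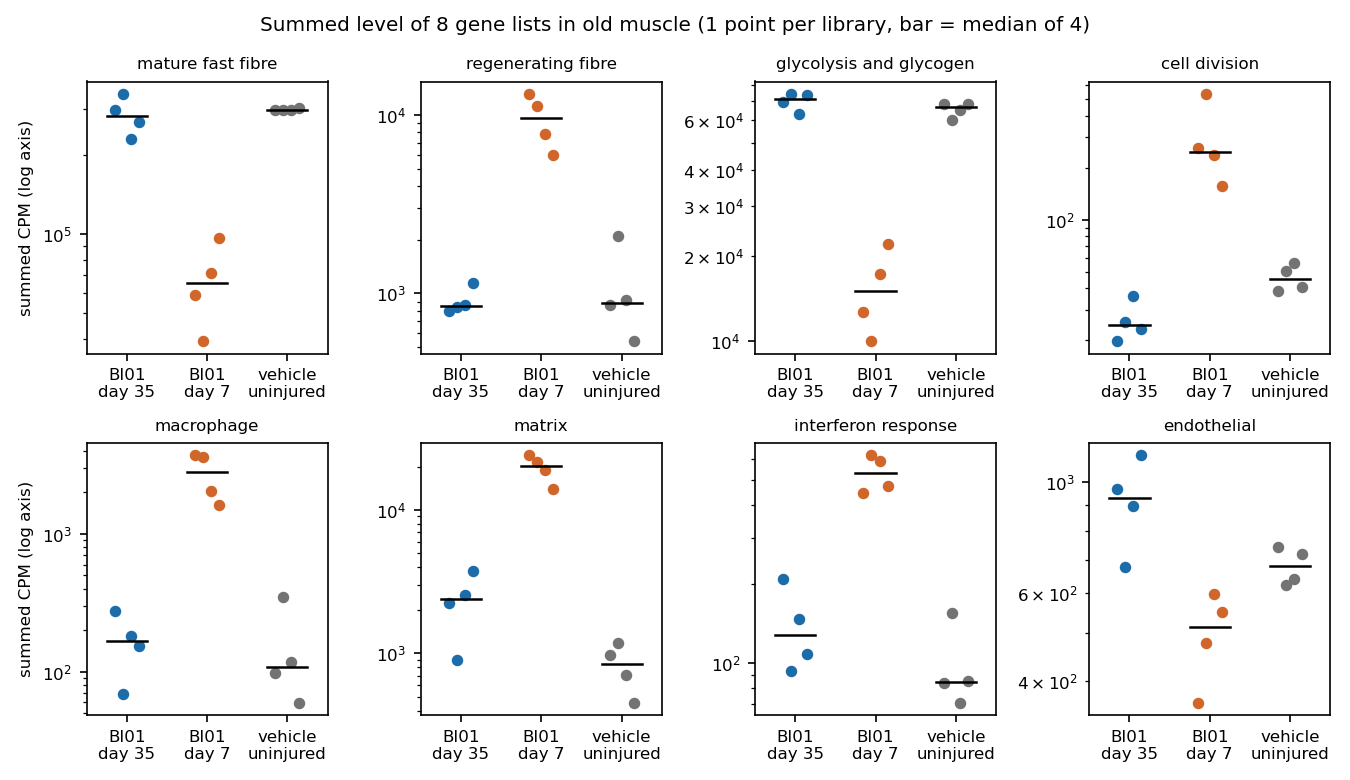
Each point is the summed CPM of a gene list in 1 library of old muscle on a log axis: BI01 at day 35 (blue, left), BI01 at day 7 (orange) and uninjured vehicle (grey), with the median of 4 as a bar. In all 8 lists the day 35 libraries lie wholly beyond the day 7 libraries, above for mature fast fibre, glycolysis and endothelial genes and below for the other 5. Taken singly, 3 of the 16 endothelial genes lay wholly above, beside 25.3% of all genes tested.

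Myogenic regulators moved in parts. In the list of satellite cell and regulator genes, 23 were tested, and 2 were called higher and 13 lower (median -1.02). Myf5, a determination factor of myoblasts, had 3.31, 2.91, 3.62 and 2.22 CPM in day 35 muscle, against 24.5, 15.8, 13.8 and 9.002 CPM in day 7 muscle (log2 fold change -2.38, SE 0.28, adjusted p = 3.78e-08). The adhesion molecule Vcam1 (-3.18), the growth factor receptor Fgfr4 (-3.01) and the engulfment receptor Megf10 (-3.47), all active in satellite cells, fell. The late factors Mef2c (0.70, adjusted p = 0.00991) and Mef2d (0.77, adjusted p = 5.95e-05) were higher under TMM, and with library size alone neither was called and the values were -0.18 and -0.11. Of 12 fusion genes 2 were called higher and 8 lower (median -1.52). Mymk, the membrane protein that drives myoblast fusion, had 2.45, 0.448, 3.55 and 1.51 CPM in day 35 muscle, against 142, 160.5, 87.4 and 67.3 CPM in day 7 muscle (log2 fold change -5.83, SE 0.92, adjusted p = 6.66e-06), and Myof, a membrane repair and fusion protein, changed by -3.20.

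The p53 axis is shown because the series title ties BI01 to it. Trp53 itself had 16.2, 12.8, 13.9 and 15.3 CPM in day 35 muscle, against 32.5, 37.4, 31.6 and 37.9 CPM in day 7 muscle (log2 fold change -1.26, SE 0.18, adjusted p = 6.18e-07), all day 35 values lying below day 7. Mdm2, whose product restrains p53 and whose gene p53 activates, had 62.6, 67.1, 60.4 and 65.1 CPM in day 35 muscle, against 49.5, 53.3, 42.0 and 45.2 CPM in day 7 muscle (log2 fold change 0.42, SE 0.12, adjusted p = 0.00459), without overlap, and with library size alone the direction turned (-0.46). Cdkn1a, the cell cycle inhibitor p21 and a classical p53 target, had 54.7, 27.6, 22.5 and 33.1 CPM in day 35 muscle, against 262, 242, 119 and 98.3 CPM in day 7 muscle (log2 fold change -2.39, SE 0.43, adjusted p = 3.22e-05). Cdkn2a, which encodes the senescence marker p16 and Arf, had 4.03, 4.33, 4.96 and 5.16 CPM in day 35 muscle, against 4.61, 3.15, 3.08 and 3.13 CPM in day 7 muscle, did not pass the test (log2 fold change 0.40, SE 0.453, adjusted p = 0.463) and turned to -0.47 with library size alone. In old uninjured muscle Cdkn2a averaged 0.572 ± 0.306 CPM (SD, n = 4), below every BI01 library of either day.

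Over the p53 list, 11 were called higher and 11 lower of 30, with a median of -0.16. The calls higher were Mdm2, Mdm4, Ccng1, Tigar, Phlda3, Perp, Aen, Ei24, Rrm2b, Polk and Xpc. The calls lower were Trp53, Cdkn1a, Bax, Bbc3, Pmaip1, Gdf15, Sesn2, Zmat3, Tnfrsf10b, Apaf1 and Fdxr, among them the death genes Bax, Bbc3 and Pmaip1. Tigar, a phosphatase that slows glycolysis, had 92.9, 123, 113 and 129 CPM in day 35 muscle, against 7.60, 5.40, 15.9 and 20.9 CPM in day 7 muscle (log2 fold change 3.21, SE 0.32, adjusted p = 2.69e-09). Ei24 (1.01, not called with library size alone) and Rrm2b (1.44), a ribonucleotide reductase subunit whose counts may include those of the overlapping Gm3362, rose, and the apoptosome gene Apaf1 fell (-1.53). With library size alone 3 of the list were higher and 20 lower. In the senescence and secretory list 1 was called higher and 20 lower of 31 (median -2.39), among them the growth factor binders Igfbp2 (-5.65) and Igfbp4 (-2.64) and the lysosomal galactosidase Glb1 (-2.86). Several members, such as Ccl7, Spp1 and Mmp13, also belong to the inflammatory or matrix lists above. Vegfa, the vessel growth factor, was the 1 member that rose, with 234, 224, 429.9 and 300.1 CPM in day 35 muscle, against 34.7, 40.4, 94.6 and 152 CPM in day 7 muscle (log2 fold change 1.89, SE 0.35, adjusted p = 3.7e-05).

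Atrophy and clock genes were mostly higher. Of 19 genes of atrophy and FoxO, 12 were called higher and 0 lower (median 1.00), with the transcription factor Foxo4 at 313, 278, 240.0 and 228 CPM in day 35 muscle, against 49.97, 40.3, 57.1 and 63.2 CPM in day 7 muscle (log2 fold change 2.33, SE 0.16, adjusted p = 2.04e-12) and with Bnip3 (2.20) and Sqstm1 (1.67), both of autophagy, also higher, although with library size alone 8 were higher and 5 lower. Of 18 clock genes 12 were called higher and 1 lower (5 and 2 with library size alone), among them the nuclear receptors Nr1d1 (2.24, which overlaps Thra) and Nr1d2 (2.19). The labels give no hour of collection. Npas2 was the clock gene called lower (-0.89, adjusted p = 0.0483), a call lost without day 35 library 6, 7 or 8 or day 7 library 1 or 2. The immediate early list was mixed, 3 were called higher and 9 lower of 19 (median -0.68), with Egr1 (-2.18) and Egr3 (-3.43) lower and Nr4a1 (2.36) and the phosphatase gene Dusp1 (1.74) higher.

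Vessel and stromal lists were mixed. For endothelial markers 8 were called higher and 0 lower of 16 (median 0.49), and with library size alone 2 were higher and 5 lower (median -0.39). Aqp1, a water channel of capillaries, had 328, 194, 275 and 336 CPM in day 35 muscle, against 63.9, 35.6, 50.2 and 53.9 CPM in day 7 muscle (log2 fold change 2.48, SE 0.22, adjusted p = 2.42e-10), and Flt1, a receptor for VEGF, rose (1.93, adjusted p = 9.67e-10). In smooth muscle and pericyte genes 5 were called higher and 6 lower of 14 (median -0.01), but 2 and 7 with library size alone. Smooth muscle actin Acta2 (-3.02) and the proteoglycan Cspg4 (-1.67) fell and the pericyte gene Rgs5 (1.39) and the smooth muscle myosin Myh11 (1.29, not called with library size alone) rose. For fibro-adipogenic progenitors 1 was called higher and 7 lower of 16 (median -1.04), with Pdgfra, the receptor that marks these cells, at 22.2, 8.96, 22.2 and 26.1 CPM in day 35 muscle, against 56.3, 41.4, 41.6 and 50.8 CPM in day 7 muscle (log2 fold change -1.26, SE 0.23, adjusted p = 2.5e-05). Gsn was the member called higher (0.99, adjusted p = 0.00259), a call lost with library size alone. The summed CPM of this list overlapped, with 556 to 1591 at day 35 and 857 to 1801 at day 7. Among tenocyte genes 0 were called higher and 6 lower of 11 (median -1.55), including Thbs4 (-2.55) and Comp (-3.43).

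Nerve-related genes fell for the most part. Of 19 genes of the neuromuscular junction 1 was called higher and 12 lower (median -0.52). Scn4a, the sodium channel of adult muscle and the member called higher, had 726, 791, 624 and 748 CPM in day 35 muscle, against 164, 88.1, 163 and 221 CPM in day 7 muscle (log2 fold change 2.18, SE 0.32, adjusted p = 9.02e-07). Its groups did not overlap. Among Schwann cell and myelin genes 1 was called higher and 7 lower of 13 (median -1.11). The neuregulin receptor Erbb3 (-2.47, adjusted p = 1.85e-07) and Pmp22 (-1.61), a protein of peripheral myelin, fell.

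In IGF signalling 2 were called higher and 7 lower of 14 (median -0.63). H19, an imprinted non-coding RNA of fetal growth, had 632, 359.7, 535 and 443 CPM in day 35 muscle, against 5822, 3876, 7573 and 8623 CPM in day 7 muscle (log2 fold change -3.72, SE 0.40, adjusted p = 8.22e-09), and Igf1, the growth factor made by macrophages and fibres in repair, had 21.6, 7.77, 15.3 and 24.5 CPM in day 35 muscle, against 123, 145, 112 and 72.3 CPM in day 7 muscle (log2 fold change -2.71, SE 0.31, adjusted p = 2.59e-08). The receptor and adaptor genes Insr (1.05) and Irs2 (1.25) were higher, neither of them called with library size alone. 

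For lysosome and phagocytosis genes 1 was called higher and 16 lower of 20 (median -1.63), with the acid lipase Lipa (-2.79) and Hexa (-1.93) lower. For adipocyte markers 4 were called higher and 0 lower of 11 (median 0.70), and 2 and 1 with library size alone. The 2 strongest of these, Car3 (3.00) and Pnpla2 (2.30), are also made by muscle fibres. For cholesterol synthesis 3 were called higher and 4 lower of 19 (median -0.32), with the regulator Srebf2 lower (-1.40). In the list of stress and unfolded protein genes 2 were called higher and 10 lower of 19 (median -0.61). Asparagine synthetase Asns fell (-2.52), and Chac1, which degrades glutathione, was higher, with 198, 27.2, 26.5 and 12.6 CPM in day 35 muscle, against 1.80, 0.529, 1.22 and 6.31 CPM in day 7 muscle (log2 fold change 4.77, SE 1.07, adjusted p = 0.000507). Day 35 library 6 held by far the highest Chac1 value.

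Some called genes had no counts at all in one group, 12 with none at day 7 and 134 with none at day 35. For these a lower bound of the fold was computed with 3 counts over the whole group in place of 0, and it covers counting error only. Dio3, which inactivates thyroid hormone, had 298 counts at day 7 and 0 at day 35, at least 48.3-fold lower. Frmd5 and Lman1l were at least 42.2-fold and 44.4-fold lower. Pkp1, a plakophilin of cell junctions, was at least 45.6-fold lower. In the other direction, Gjc3, a connexin of myelinating cells, had 35 counts at day 35 and 0 at day 7, at least 24.0-fold higher. Sel1l2 and Chia1 were at least 19.9-fold and 17.1-fold higher.

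The next question was whether the change between the days differed between BI01 and vehicle in old muscle. In old vehicle muscle 10085 genes were called between the days (58.9%), and in young vehicle muscle 9464 (55.3%). No gene passed the test of the difference of differences in edgeR (0 of 17121), 825 genes (4.82%) had an unadjusted p under 0.05, limma voom called 0, and DESeq2 called 2, Aif1l and Lrch1. For the median gene the 95% confidence interval of the difference was ±0.83 on the log2 scale, and a p that misses the threshold does not show that the groups changed alike. Across genes, which are not independent replicates, the change in BI01 muscle and that in vehicle muscle, which share no library, had a Pearson r of 0.90 and a Spearman rho of 0.91. Of the genes called in BI01 muscle, 8195 were called in the same direction in vehicle muscle (86.2% of 9511 and 81.3% of 10085) and 0 in the opposite one.

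Among genes averaging at least 5 CPM in a group compared, predicted genes left out, Aif1l, Lrch1 and Colq had that difference's smallest p-values. Aif1l, an actin-binding protein, had 4.60, 1.57, 5.43 and 4.95 CPM in day 35 muscle, against 67.4, 46.0, 40.1 and 37.1 CPM in day 7 muscle with BI01. With vehicle it had 13.2, 43.8, 29.1 and 12.6 CPM at day 35, against 45.5, 44.6, 35.6 and 32.9 CPM at day 7. Its log2 change was -3.52 with BI01 and -0.68 with vehicle, a difference of -2.84 (unadjusted p = 0.000107, adjusted p = 0.913; 0.0388 in DESeq2). Colq, the collagen tail that anchors acetylcholinesterase at the synapse, had log2 fold changes of -0.67 with BI01, not called (adjusted p = 0.0842), and 1.16 with vehicle (difference -1.82, unadjusted p = 0.000432). Lrch1 had -0.55 with BI01 and -1.57 with vehicle (difference 1.01, unadjusted p = 0.000251). None of the 3 passed the adjusted test in edgeR. Of the p53 list, 7 of 30 genes had an unadjusted p under 0.05, beside 4.82% of all genes. Changes were nearer 0 with BI01 for Pmaip1, Gdf15, Tnfrsf10b, Apaf1, Phlda3 and Ei24, and farther from 0 for Fdxr. Other lists varied, with 4 of 19 neuromuscular junction, 4 of 20 regenerating fibre and 2 of 7 B and plasma cell genes under 0.05. The matrix list had 0 of 30 and the nuclear respiratory chain list 0 of 35. Of 7 red blood cell genes tested 4 had an unadjusted p under 0.05. Between the days 0 of these were called higher and 0 lower in BI01 muscle (median 1.00). Hbb-bs, a beta globin, had 107, 27.3, 46.0 and 147 CPM in day 35 muscle, against 54.5, 13.7, 67.6 and 20.1 CPM in day 7 muscle with BI01 (log2 fold change 1.07, not called) and 70.2, 522, 77.4 and 87.3 CPM at day 35, against 19.7, 13.8, 19.9 and 1.88 CPM at day 7 with vehicle (3.77; unadjusted p of the difference = 0.0158). Vehicle library 7 at day 35 held the highest Hbb-bs value, and the part of blood in these libraries was not tested.

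**Figure D4:**
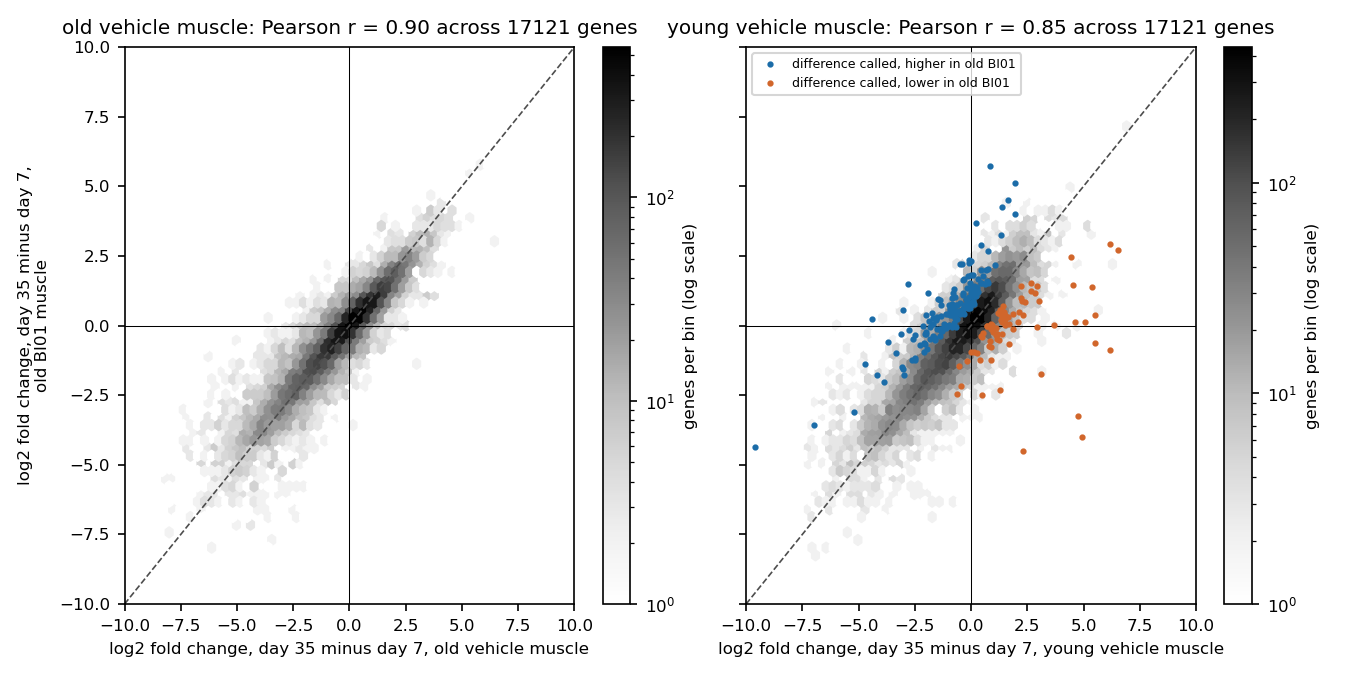
Shading counts genes by their log2 fold change, day 35 minus day 7, in old BI01 muscle (vertical axis) and in old vehicle (left) or young vehicle muscle (right); the dashed line marks equal change. Pearson r was 0.90 and 0.85 over 17121 genes. Coloured points are the 240 genes whose change differed between old BI01 and young vehicle muscle, 164 above the line and 76 below it.

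Set against young vehicle muscle, the change between the days differed in 240 of 17121 genes (1.4%), 164 with a higher value in old BI01 (0.958%) and 76 with a lower one (0.444%). Age and treatment differ together here, and their parts were not tested. In 240 of the 240 genes the change in old vehicle muscle lay on the same side of the young change as that in old BI01. In 111 of the 240 the signs in old BI01 and young muscle were opposite. The count depends on single libraries, from 79 without young day 35 library 1 to 279 without old BI01 day 35 library 6, and the split depends on scaling: with library size alone 74 were higher and 135 lower.

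The 5 genes named with a higher value in old BI01 muscle had negative changes in young muscle. Mkl1, a coactivator of serum response factor, had 38.8, 65.6, 57.1 and 67.9 CPM in day 35 muscle, against 64.7, 51.5, 70.4 and 69.0 CPM in day 7 muscle, and in young muscle 10.4, 10.3, 16.2 and 13.0 CPM at day 35, against 79.4, 83.0, 78.0 and 93.7 CPM at day 7. Its log2 changes were -0.16 in old BI01, 0.06 in old vehicle and -2.74 in young muscle, a difference of 2.59 (adjusted p = 2.23e-06). Mkl1 overlaps Sgsm3, whose counts came to 22.1% of its own. Tnfaip2, induced by tumour necrosis factor, averaged 112 ± 28.7 CPM in day 35 muscle, against 59.6 ± 13.99 CPM in day 7 muscle with BI01, and in young muscle 34.4 ± 4.68 CPM at day 35, against 89.9 ± 12.1 CPM at day 7 (SD, n = 4; difference 2.30, adjusted p = 6.3e-05). Podxl, a sialomucin of vessel walls (1.86), Efr3b, which anchors a lipid kinase at the membrane (3.10), and the kinase Tnik (2.06) differed in the same direction.

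The 5 genes named on the other side had positive changes in young muscle. In old BI01 muscle the log2 changes of Osgin1 (0.88) and Cat (0.31) were smaller and positive. Those of Stk11ip (-0.47), Fbxo21 (-0.25) and Acot2 (-0.05) were negative. Acot2, a thioesterase of mitochondrial fatty acyl-CoA, had 10.4, 5.003, 11.2 and 11.3 CPM in day 35 muscle, against 12.02, 10.1, 7.15 and 9.97 CPM in day 7 muscle, with overlap, and in young muscle 90.9, 91.7, 52.0 and 46.4 CPM at day 35, against 7.31, 8.27, 10.3 and 11.1 CPM at day 7. The log2 changes were -0.05 in old BI01, 0.25 in old vehicle and 2.93 in young muscle (difference -2.98, adjusted p = 6.52e-05). Osgin1, induced by oxidative stress (-2.15), Stk11ip, a partner of the kinase LKB1 (-1.62), Fbxo21, of a ubiquitin ligase (-1.22), and Cat, catalase (-1.35), differed likewise. All 10 genes kept their call in 23 alternative settings and lost it with library number as a replicate block. Whether these numbers pair any libraries is not stated in the labels. Across all genes, the changes in old BI01 and young muscle, which share no library, had a Pearson r of 0.85 and a Spearman rho of 0.85, with 7305 genes called in the same direction and 36 in opposite ones.

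**Figure D5:**
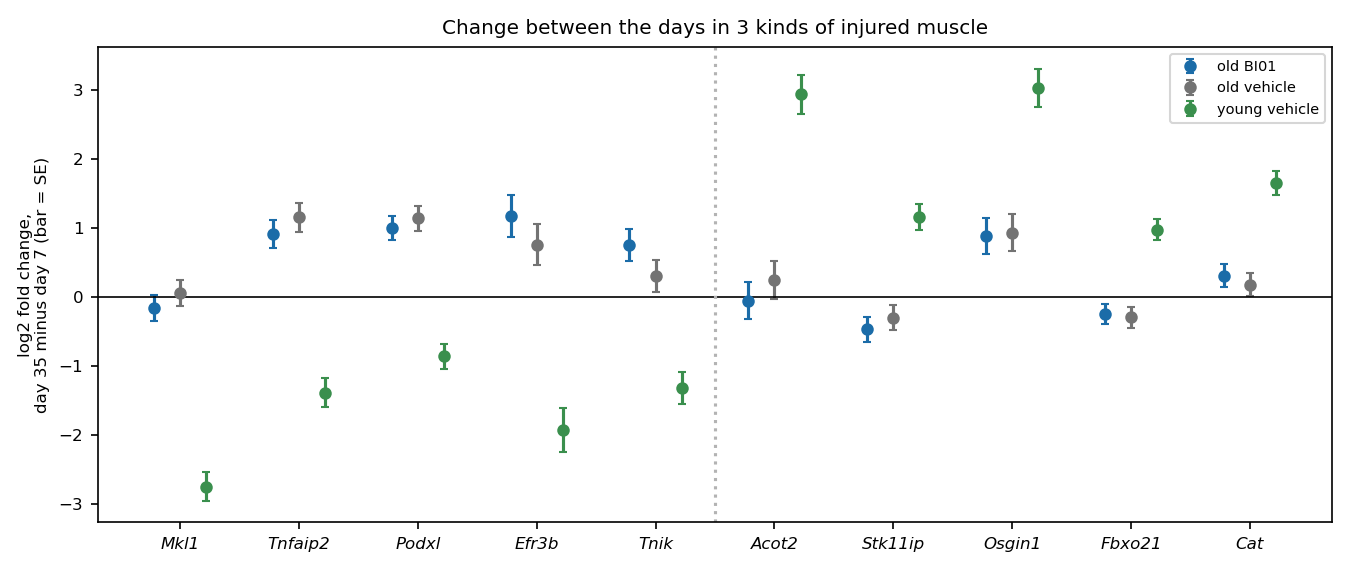
Points are the log2 fold change, day 35 minus day 7, with its SE, for 10 genes in old BI01 (blue, left), old vehicle (grey) and young vehicle muscle (green). In the 5 genes on the left the young points lie below 0, and in the 5 on the right they are the highest of the 3.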

How the data were processed

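Gene counts of 32 mouse muscle libraries were used as the authors deposited them, whole numbers of reads per Ensembl gene that were not normalised. The submitters' processing notes name HISAT2 and mm10, without versions, and the labels' protocols give total RNA extraction with a Qiagen kit and mRNA sequencing at Novogene. The counting program, its annotation and the use of strand are not stated there. Total counts were 16419816 to 21590707 in the 8 BI01 libraries, and levels rest on counts, so low genes carry wide errors.

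All 32 libraries, in 8 groups of 4, were fitted with edgeR 4.0.16 in R 4.3.3 (quasi-likelihood, robust, TMM scaling, filterByExpr), which shares 1 estimate of the spread. Contrasts were day 35 minus day 7 in old BI01 muscle, and the difference between that change and the change in old or young vehicle muscle. Adjusted p-values are Benjamini and Hochberg over 17121 genes. SE is the fold change over the root of F. DESeq2 1.42.0, limma 3.58.1 (voom), other scalings and filters, library number as a replicate block, and leaving out each library were alternatives. The procedure was tested on simulated data. No pair of libraries was alike within counting noise (chi-square per gene at least 22.6).

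Table columns name a group and a number, so libraries were mapped to groups only. Genes were named by rule: the 10 largest rises and falls with a mean of at least 5 CPM and no overlap, up to 4 members of each list by p and up to 2 against its direction, 5 genes each way for each difference (or 3 where none was called), 4 genes of the p53 axis, the 5 most abundant and up to 5 without counts in a group. The members and the 39 lists were chosen with earlier results of these data known. Promoters come from RefSeq (GRCm38.p6), matched by symbol for 11906 of 17121 genes. Some genes that the rule names are not reported here.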

Additional observations from a re-analysis of the deposited data

Results flagged for a closer look

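Of 354 groups of 4 values checked for a library far from the other 3, 17 stood out (4.8%), and chance alone gives about 1 in 20. Day 7 library 2 was the high one in 4 genes of cell division and DNA replication, with 14.4 CPM of Kif23, 19.7 CPM of Mcm5, 15.9 CPM of E2f1 and 56.0 CPM of Rrm1. It also had the largest total count, 21590707. Day 7 library 1 was high in Cdkn2a (4.61 CPM) and low in Podxl (17.3 CPM), and day 7 library 4 was high in Scn4b (29.7 CPM).

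At day 35, library 6 had 198 CPM of Chac1 and 50.7 CPM of Tgfbr2, above its group, and 69.0 CPM of Tnfaip2, 13.7 CPM of Fbxo21 and 0 CPM of Lck, below its group. Library 7 had 308 CPM of Aldh1a1, away from the other 3, and low values of Pmp22 (6.87 CPM) and Acot2 (5.003 CPM). Library 9 had 79.4 CPM of Podxl, the high value of its group.

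Among the 173 named genes checked, 15 changed differently between the days in old BI01 and young vehicle muscle by the edgeR test of the difference. Over all genes tested the share was 1.4%. The naming rule took 10 of these 15 from this same test, so their number is no result about the named genes. Aqp4 had a log2 change of 5.72 in old BI01, 5.17 in old vehicle and 0.84 in young muscle, a difference of 4.87 (adjusted p = 0.00449). Its levels were 37.4, 31.7, 35.0 and 34.9 CPM in day 35 muscle, against 0.4495, 0.167, 0.465 and 1.65 CPM in day 7 muscle, and in young muscle 6.46, 11.6, 13.7 and 4.15 CPM at day 35, against 1.74, 3.60, 5.25 and 9.79 CPM at day 7. The difference was 3.15 for Car14 (adjusted p = 0.00881), whose overlap with Aph1a is given above, and 2.31 for Nr1d1 (adjusted p = 0.017). It was -2.13 for Ighm (adjusted p = 0.039) and -1.86 for Erbb3 (adjusted p = 0.0279). The other 10 are those named in the report, at 2.59 for Mkl1, 2.30 for Tnfaip2, 1.86 for Podxl, 3.10 for Efr3b and 2.06 for Tnik, and at -2.98 for Acot2, -1.62 for Stk11ip, -2.15 for Osgin1, -1.22 for Fbxo21 and -1.35 for Cat. Further genes with such a difference, chosen by family, stand among the other observations.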

How the results depend on the processing

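Between the days, the count of called genes stayed within 1.5 times of 9511 under every alternative tried, from 8670 without day 35 library 7 to 11521 with library size alone. Under library size alone the share of calls that were higher was 11.8% in place of 47.1%. The signs of Rrm1 (-0.43), Ackr3 (-0.10), Mef2d (-0.11), Mef2c (-0.18), Mdm2 (-0.46), Cdkn2a (-0.47), Hba-a1 (-0.018), Tnik (-0.12) and Cat (-0.56) turned. Acot2 ranged from -0.18 to 0.16 when single libraries were left out. Of 2907 gene values under alternatives, 2813 kept direction and side of the threshold, 75 lost the call, 8 gained it and 11 turned sign. Calls lost without a single library are named beside Rrm1, Jchain, C7, Ackr3 and Npas2. Lipe and Stk11ip lost theirs too, Lipe without day 35 library 6 or day 7 library 2, 3 or 4, and Stk11ip without day 35 library 7, 8 or 9 or day 7 library 1 or 2.

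The difference between BI01 and vehicle had 0 calls in edgeR under each setting without a replicate block and 2 in DESeq2. Against young muscle 240 calls became 416 with only the groups compared, 578 in DESeq2, 140 without the filter and 79 to 279 with single libraries left out. Besides young day 35 library 1 (79), counts fell by over 1.5 times without old BI01 day 35 library 7 (144), 8 (115) or 9 (108), day 7 library 1 (99), young day 35 library 2 (120) or 4 (126), and young day 7 library 4 (141) or 7 (84). The cause was not tested. No paired analysis was possible because, between the BI01 days themselves, the columns carry no shared numbers (6 to 9 and 1 to 4). Other groups do share numbers, and with library number as a replicate block in the fit of all libraries 33 genes were called between BI01 and vehicle and 77 against young muscle, where the 10 genes named lost their calls. The labels do not say whether the numbers pair any libraries. Deviations from the group means of same-numbered old BI01 and old vehicle libraries at day 35 correlated at -0.10 to 0.034. Of these 4 BI01 libraries, 0 correlated best with its own number. For old BI01 at day 7 beside young vehicle at day 35 the range was -0.099 to 0.124, and library 4 correlated best with its own number. Same-numbered libraries within one treatment were not compared, so pairing there was not tested.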

Other observations

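Some gene families outside the lists above also moved, and they were chosen after their values were seen. Of 15 basement membrane genes, 2 were called higher and 11 lower between the days in BI01 muscle (median log2 fold change -0.87), and the median was -0.96 in old vehicle and -1.98 in young vehicle muscle. For 7 of them the change in old BI01 muscle lay above that in young muscle by the edgeR test of the difference: Col4a1, Col4a2, Lamc1, Col15a1, Lama4, Nid2 and Hmcn1. Over all genes tested this held for 0.958%, and a family chosen with its values seen is not tested by such a count. With library size alone 2 of the 15 genes were called higher in that test. Hmcn1, hemicentin of the extracellular matrix, had log2 fold changes of -0.30 in old BI01, -0.08 in old vehicle and -3.11 in young muscle. It was not called in old BI01 (adjusted p = 0.558), and the difference from young muscle was 2.82 (adjusted p = 0.0179). Col15a1 had -0.99 in old BI01, where it was called lower, -1.16 in old vehicle and -3.34 in young muscle. Its difference between old BI01 and young muscle was 2.36 (adjusted p = 0.00606).

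Among 15 imprinted growth genes 1 was called higher (Gnas) and 13 lower (median -2.63). Mest changed by -4.46, Plagl1 by -4.18, Igf2 by -3.18 and Cdkn1c, a cell cycle inhibitor, by -2.63. The non-coding RNAs Rian and Mirg, neighbours in one imprinted cluster, had log2 fold changes of -0.60 and -1.39 in old BI01, -2.29 and -3.24 in old vehicle and -3.68 and -4.73 in young muscle. In BI01 muscle Rian was not called (adjusted p = 0.338) and Mirg was called lower (adjusted p = 0.0387). The change differed between old BI01 and young muscle by the edgeR test (differences 3.08 and 3.33, adjusted p = 0.0392 and 0.0442), and neither difference was called with library size alone. Between BI01 and vehicle the unadjusted p of the difference was 0.0325 for Rian and 0.0343 for Mirg. Without vehicle day 35 library 7 or 8 it was 0.066 or 0.064 for Rian. Without library 7, 8 or 9 of that group it was 0.062, 0.064 or 0.063 for Mirg. Without its library 6 it was 0.0050 for Rian and 0.0012 for Mirg, and without library 9 it was 0.041 for Rian. Of the 15 genes 3 had an unadjusted p under 0.05, beside 4.82% of all genes. As the family was chosen with its values seen, this count does not test it. None of the 15 passed adjustment there.

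Krt8 and Krt18, keratins of simple epithelia, had log2 fold changes of -1.51 and -1.28 with BI01, and neither was called (adjusted p = 0.117 and 0.223). With vehicle they had 2.93 and 3.12. Krt8 had 0.647, 0, 3.28 and 1.87 CPM in day 35 muscle, against 2.81, 1.53, 5.87 and 6.55 CPM in day 7 muscle with BI01, and with vehicle 5.84, 68.5, 19.9 and 9.96 CPM at day 35, against 1.19, 3.03, 4.69 and 4.84 CPM at day 7. Krt18 had 2.59, 3.21, 3.68 and 4.02 CPM in day 35 muscle, against 3.75, 1.64, 9.16 and 18.4 CPM in day 7 muscle with BI01, and with vehicle 15.6, 163, 46.2 and 34.9 CPM at day 35, against 0.903, 6.50, 12.9 and 9.88 CPM at day 7. Vehicle day 35 library 7 held the highest value of both genes. The unadjusted p of the difference was 0.000481 and 0.0014, and neither passed adjustment (adjusted p = 0.921). Without that library the unadjusted p was 0.00418 and 0.00777, with differences of -3.31 and -3.38.

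All 13 mitochondrially encoded protein genes rose (median 2.12, and 1.25 with library size alone). Of 74 mitochondrial ribosomal protein genes 46 were called higher and 1 lower (median 0.63), but 3 and 16 with library size alone (median -0.23). Of 81 cytosolic ribosomal protein genes 2 were called higher and 44 lower (median -0.53, and -1.41 with library size alone), with medians of -0.21 in old vehicle and -0.02 in young vehicle muscle. Many ribosomal protein genes have near-identical pseudogenes, so their counts are uncertain. Of 38 proteasome genes 24 were called higher and 3 lower (median 0.52), and 1 and 18 with library size alone (median -0.36).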
